A study of Mus musculus with 23 samples.

Results

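Resting gastrocnemius muscle of mice lacking emerin was set against that of mice lacking lamin A/C, on the 2 emerin KO (knockout) arrays and the 3 lamin A/C KO arrays labelled day 0. These are 5 of the 23 Affymetrix arrays of a study of both knockouts and of control mice on days 0, 3 and 4 of a course of muscle degeneration and regeneration set off by injection. The titles and descriptions chose the arrays, every gene on them was read, and no control array entered a difference. To the comparison at rest the other 18 arrays added to the estimate of the spread. They also counted in choosing the probe set of each gene and the genes tested. The labels describe the emerin KO day 0 muscle as not injected and the lamin A/C KO day 0 muscle as taken 0 days after injection, so this handling and the genotype cannot be told apart. No strain, age, sex or form of the deleted alleles is given. Nor do the labels name separate animals behind the arrays, so p-values here cover the spread among arrays, which may be technical. Without a control, a difference does not say which genotype departs from normal muscle.

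Lamins A and C, both made from Lmna, are intermediate filament proteins of the meshwork under the inner nuclear membrane, and emerin, made from Emd, is a protein of that membrane that binds the lamina. Mutations of either gene cause forms of Emery-Dreifuss muscular dystrophy in people, an inherited wasting of muscle with heart disease. Regenerating and denervated muscle fibers are known to make fetal forms of contractile proteins and of the acetylcholine receptor, and dystrophic muscle to lay down extracellular matrix. The lists below follow these programs.

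In resting muscle the larger and more numerous differences were genes higher in lamin A/C KO. Their lists were embryonic and fetal muscle proteins, denervation genes with myogenin, the insulin-like growth factor axis with Igf2, extracellular matrix, and heat shock and metallothionein genes. The genes higher in emerin KO included the polyamine enzyme Smox, the methionine salvage enzyme Adi1, the ubiquitin ligase genes Fbxo32, Asb10 and Asb14, and lipid genes. Of the adult fast contractile genes and of the respiratory chain genes, 1 each passed the test.

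Values are MAS5 signals, a measure of the brightness of a probe set, rescaled so that the trimmed mean of each array is 500. A difference is the emerin KO mean minus the lamin A/C KO mean of log2(signal + 32), with its standard error from limma, so a negative difference is a gene higher in lamin A/C KO, and the added 32 understates the change of dim genes. A gene passed when its p adjusted by Benjamini-Hochberg over all 11164 genes tested was under 0.05. A fold is the ratio of the mean signals, and where the mean of the dimmer group is under 100, the level used as the limit of detection, the fold is given as "at least" against 100. In RNA of whole muscle, fewer cells of a type and less RNA per cell cannot be told apart.

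The 5 arrays differed among themselves as well as between genotypes. Emerin KO replicate 2 stood apart: over all genes it correlated with emerin KO replicate 1 at r = 0.924, while the 3 lamin A/C KO arrays correlated with each other at 0.938 to 0.962. Emerin KO replicate 1 was nearer to each lamin A/C KO array (0.945, 0.944 and 0.929) than to its own replicate, and emerin KO replicate 2 correlated with them at 0.904, 0.891 and 0.924. On the first principal component of the 5 arrays (43.9% of the variance) it lay at 48.3 and the other 4 between -25.1 and 1.24. The ratio of the 3' to the 5' Gapdh control probe set, which grows as RNA breaks down, was 0.914 and 1.34 in emerin KO and 0.852 to 0.963 in lamin A/C KO. Markers of skeletal muscle fibers summed to 161200 to 177300 in emerin KO and 149000 to 199700 in lamin A/C KO. The markers of the labelled tissue were thus bright on all 5 arrays.

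The deleted genes were read first. The Lmna probe set used here, the brightest over all 23 arrays of the study, gave 715 and 650 on the emerin KO arrays. It gave 67.7, 56.5 and 109 on the lamin A/C KO arrays. The lamin A/C KO arrays were all at or near the limit, Lmna was at least 6.83-fold higher in emerin KO (difference 2.73 ± 0.20, adjusted p = 1.4e-08), and the groups did not overlap. Another Lmna probe set, brighter on average over the 5 compared arrays, read 809 and 522 in emerin KO and 591, 792 and 435 in lamin A/C KO, with overlap. The remaining, dim one had the opposite sign, at 142 and 20.4 against 155, 116 and 125. With the mean of all probe sets Lmna did not pass. A Lmna signal was thus still read in lamin A/C KO by these probe sets, and the labels do not say whether they lie inside the deletion. Emd gave 372 and 465 on the emerin KO arrays and 809, 670 and 846 on the lamin A/C KO arrays. Emerin KO was lower on each array, but the difference of -0.84 ± 0.27 did not pass (adjusted p = 0.067), and an Emd signal well above 100 was still read in the emerin KO.

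Of the 11164 genes, 703 passed, which is 6.3% of those tested: 236 (2.11%) were higher in emerin KO and 467 (4.18%) were higher in lamin A/C KO. At an unadjusted p under 0.05 the balance was nearly even, with 1025 genes (9.18%) higher in emerin KO and 1047 (9.38%) in lamin A/C KO, 18.6% in all. These shares are the background for the unadjusted counts of the lists, and 2.11% and 4.18% for the counts of list members that passed. The arrays of both groups did not overlap for 235 and 462 of the genes that passed. Over all 11164 genes tested, the arrays did not overlap for 1890 genes higher in emerin KO and 1533 higher in lamin A/C KO. Non-overlap of 2 and 3 arrays was thus common. Genes higher in lamin A/C KO also differed by more: 216 of them by at least 2-fold and 25 by at least 4-fold, against 76 and 6 of the genes higher in emerin KO. The median difference was -0.97 among the genes higher in lamin A/C KO and 0.81 among those higher in emerin KO, and over all genes it was 0.06. Without emerin KO replicate 2 the counts were 107 and 247, and 296 of those 354 genes were also among the 703. Fitted on the 5 arrays alone, with 3 residual degrees of freedom, 120 and 211 passed.

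**Figure D1:**
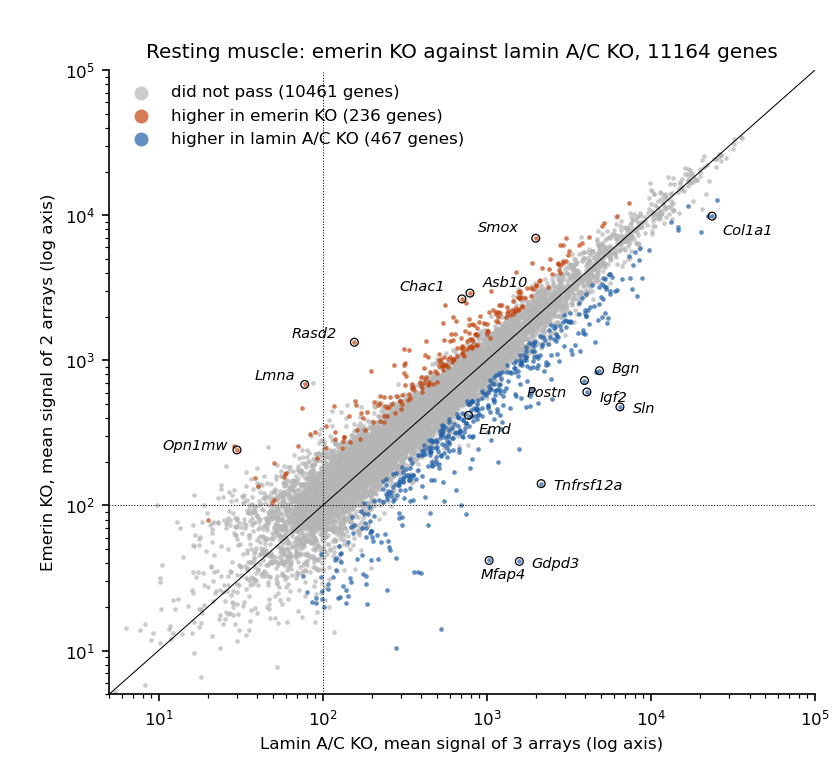
Mean signal of each of the 11164 genes in resting lamin A/C KO muscle (x axis, 3 arrays) and emerin KO muscle (y axis, 2 arrays), both on log axes, with the line of equal signal and dotted lines at the limit of 100. Of the coloured genes, 236 lie above the line (higher in emerin KO) and 467 below it (higher in lamin A/C KO), the latter reaching farther from the line. Emd is marked although it did not pass.

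The largest difference was in Gdpd3, a glycerophosphodiester phosphodiesterase that takes part in making lysophosphatidic acid. Its signals were 36.0 and 46.3 on the emerin KO arrays and 1444, 1308 and 1990 on the lamin A/C KO arrays. Both emerin KO arrays were under the limit and all lamin A/C KO arrays over 1000, at least 15.8-fold higher (difference -4.44 ± 0.21, adjusted p = 1.2e-11). Sln encodes sarcolipin, a small inhibitor of the calcium pump of the sarcoplasmic reticulum that mouse limb muscle makes mainly in development and disease. Its signals were 371 and 585 on the emerin KO arrays and 7402, 4958 and 7107 on the lamin A/C KO arrays, 13.6-fold higher in lamin A/C KO (-3.69 ± 0.22, adjusted p = 4e-10). The highest emerin KO array was far under the lowest lamin A/C KO array. Tnfrsf12a, the receptor of the cytokine TWEAK and a gene of injured and denervated muscle, gave 91.6 and 191 on the emerin KO arrays and 2220, 1682 and 2543 on the lamin A/C KO arrays. It was 15.2-fold higher in lamin A/C KO (-3.70 ± 0.27, adjusted p = 1.6e-08), with both emerin KO arrays under 200.

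Mfap4, a microfibril-associated glycoprotein, gave 55.7 and 27.8 for emerin KO and 1147, 799.5 and 1157 for lamin A/C KO, at least 10.3-fold higher in lamin A/C KO (-3.86 ± 0.48, adjusted p = 1.6e-05). Kcne1l, a potassium channel accessory subunit, gave 9.78 and 18.3 for emerin KO and 697, 416 and 477 for lamin A/C KO, at least 5.3-fold (-3.59 ± 0.50, adjusted p = 8.1e-05). Neither gene was above the limit on any emerin KO array. The protease inhibitor Serpinb1a read 12.1 and 8.83 for emerin KO and 246, 327 and 265 for lamin A/C KO, at least 2.8-fold (-2.87 ± 0.26, adjusted p = 4.2e-07). The acute phase inhibitor Serpina3n read 39.8 and 29.4 for emerin KO and 516, 429.7 and 194 for lamin A/C KO, at least 3.8-fold (-2.54 ± 0.38, adjusted p = 0.00015). The retinol-binding protein Rbp7 was at 697, 749 and 786 for lamin A/C KO and 101 and 74.1 for emerin KO, at least 7.44-fold (-2.70 ± 0.29, adjusted p = 2.9e-06). All 3 were again near or under the limit in emerin KO only. Tubb6, a beta-tubulin that regenerating fibers make, was at 764, 561 and 762 for lamin A/C KO and 64.7 and 136 for emerin KO, 6.94-fold (-2.50 ± 0.19, adjusted p = 2.7e-08). Spsb2, which encodes a SOCS box protein, was at 512, 400.1 and 166 for lamin A/C KO and 38.0 and 31.7 for emerin KO, at least 3.6-fold on this probe set (-2.43 ± 0.30, adjusted p = 1.8e-05), while its other probe set read 269 and 187 against 229, 326 and 293, with overlap. The other probe set of Serpinb1a, dim in both groups, overlapped too. Non-overlap on the probe sets used here was a condition for naming these 10 genes from Gdpd3 to Spsb2, so it adds no support. Each of them still passed when any 1 of the 3 lamin A/C KO arrays was left out. Each kept its sign when any 1 of the 5 arrays was left out.

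Among embryonic and fetal muscle proteins, 11 of 16 tested genes were higher in lamin A/C KO and 0 were higher in emerin KO by limma (at an unadjusted p under 0.05, 15 and 0), with a median difference of -1.20 against 0.06 over all genes. Counted in that direction, 4.18% of all genes tested passed. Myh8, the perinatal myosin heavy chain, was at 534, 636 and 773 for lamin A/C KO and 125 and 130 for emerin KO (5.08-fold, -2.08 ± 0.20, adjusted p = 7.4e-07). Myh3, the embryonic heavy chain, gave 279.8 and 59.7 for emerin KO and 605, 684 and 617 for lamin A/C KO (3.74-fold, -1.98 ± 0.30, adjusted p = 0.00016). The lamin A/C KO arrays lay close together for both and the emerin KO arrays were well below. Myl4, the embryonic light chain, was at 1938, 1672 and 1920 for lamin A/C KO and 608 and 355 for emerin KO (3.83-fold, -1.91 ± 0.21, adjusted p = 3e-06). Tnnt2, the cardiac and embryonic troponin T, was at 505, 576 and 549 for lamin A/C KO and 107 and 182 for emerin KO (3.76-fold, -1.74 ± 0.21, adjusted p = 1.4e-05). The same gap between the groups was seen in both, although Tnnt2 was read by a probe set that may share signal with relatives. Ankrd1, a stretch-sensing ankyrin repeat protein of the sarcomere, gave 248 and 239 for emerin KO and 1891, 1485 and 1354 for lamin A/C KO (6.47-fold, -2.53 ± 0.26, adjusted p = 1.4e-06), and its other probe set read 292 and 209 against 2046, 1500 and 1378. Mymk, the myoblast fusion protein myomaker, was higher by less, at 193, 345 and 464 for lamin A/C KO and 157 and 155 for emerin KO (2.14-fold, -0.89 ± 0.22, adjusted p = 0.016). Cdh15, the M-cadherin of satellite cells and myoblasts, was at 498, 493 and 621 for lamin A/C KO and 359.9 and 359 for emerin KO (1.5-fold, -0.53 ± 0.16, adjusted p = 0.046). The intermediate filament Vim was at 9744, 8395 and 8328 for lamin A/C KO and 4316 and 3031 for emerin KO (2.4-fold, -1.27 ± 0.15, adjusted p = 9e-06). Vim is also made by fibroblasts and vessels. The members that did not pass were Actc1 (-0.62), Nes (-0.62), Dlk1 (-1.05), Actn1 (-0.55) and Des (-0.14). Without emerin KO replicate 2, 8 of the 16 passed, and 8 did so in the fit on the 5 arrays alone.

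Genes that denervation turns on in muscle included 3 acetylcholine receptor subunits that were higher in lamin A/C KO, 2 of which, Chrna1 and Chrnb1, also belong to the adult receptor. Of 18 tested genes 8 were higher in lamin A/C KO, where 4.18% of all genes were, and 0 in emerin KO (unadjusted 8 and 0), with a median of -0.21. Myog, myogenin, the transcription factor of muscle differentiation, gave 248 and 242 on the emerin KO arrays and 818, 953 and 873 on the lamin A/C KO arrays (3.59-fold, -1.72 ± 0.18, adjusted p = 2.9e-06). Arrays of each genotype lay close and the groups were far apart. Chrna1, the alpha subunit of the muscle acetylcholine receptor, was at 1404, 1029 and 1343 for lamin A/C KO and 536 and 441 for emerin KO (2.58-fold, -1.30 ± 0.15, adjusted p = 5.8e-06). Chrnb1, the beta subunit, was at 780.3, 819.7 and 1011 for lamin A/C KO and 468 and 318 for emerin KO (2.22-fold, -1.10 ± 0.22, adjusted p = 0.0026). Chrng, the gamma subunit of the fetal receptor, was dimmer, at 81.5, 101 and 180.2 for lamin A/C KO and 30.7 and 40.9 for emerin KO, at least 1.21-fold (-1.13 ± 0.30, adjusted p = 0.025). Its adult counterpart Chrne differed by 0.08 ± 0.40 (adjusted p = 0.95). The delta subunit Chrnd was under the limit on all 5 arrays, so its difference of -0.01 ± 0.37 (adjusted p = 0.99) says little. Ncam1, the neural cell adhesion molecule that spreads over denervated fibers, was at 242, 123 and 193 for lamin A/C KO and 22.4 and 19.4 for emerin KO, at least 1.86-fold (-2.01 ± 0.29, adjusted p = 0.00013), and both of its other probe sets had the same sign. Runx1, a transcription factor induced by denervation, read 70.8, 117 and 111 for lamin A/C KO and 16.5 and 35.1 for emerin KO, near or under the limit in both groups (-1.19 ± 0.32, adjusted p = 0.024). Its call was lost without either emerin KO array or without lamin A/C KO replicate 2 or 3. The kinases and scaffolds of the junction, Musk (-0.04), Rapsn (0.29) and Lrp4 (-0.09), did not pass. Without emerin KO replicate 2, 5 of the 18 passed, and 4 did so on the 5 arrays alone.

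The upstream DNA of 3 of these genes is shown because the letters CAGCTG, a form of the E-box that myogenin and its relatives are known to bind, occur there. The letters read the same on both strands. They occur in the 250 bases before the start of 13% of 32851 RefSeq promoters. Of the 17 genes of both lists that were higher in lamin A/C KO, 15 had a promoter entry, and 5 of their 25 promoters held the letters, in 4 genes (Chrna1, Chrng, Prkar1a and Tnnt2). The sequences are from RefSeq on GRCm38.p6 in the direction of the gene, 120 bases each, with CAGCTG in capitals. The Chrna1 stretch is chr2:73580344-73580463, minus strand, the Chrng stretch chr1:87205610-87205729, plus strand, and the Tnnt2 stretch chr1:135836087-135836206, plus strand.
Chrna1: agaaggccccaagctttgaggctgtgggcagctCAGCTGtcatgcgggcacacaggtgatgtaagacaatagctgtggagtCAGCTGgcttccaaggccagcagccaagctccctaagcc
Chrng: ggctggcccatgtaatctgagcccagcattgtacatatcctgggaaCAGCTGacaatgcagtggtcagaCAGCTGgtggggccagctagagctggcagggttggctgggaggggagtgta
Tnnt2: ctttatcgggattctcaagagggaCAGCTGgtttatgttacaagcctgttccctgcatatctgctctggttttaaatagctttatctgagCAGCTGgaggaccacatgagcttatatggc
Each stretch holds the letters 2 times, starting 92 and 44 bases before the start of Chrna1, 155 and 132 before that of Chrng and 223 and 157 before that of Tnnt2. A match is a description of the letters and does not show binding.

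In the list of the insulin-like growth factor (IGF) axis, 7 of 26 tested genes were higher in lamin A/C KO and 1 in emerin KO, against 4.18% and 2.11% of all genes. Unadjusted, the list had 10 and 3, with a median of -0.32. Of its 8 imprinted genes, that is, genes expressed from 1 parental copy in at least some tissues, 6 were higher in lamin A/C KO. This grouping was made after the values were seen. Igf2, the fetal growth factor, gave 523 and 688 on the emerin KO arrays and 3987, 3546 and 4708 on the lamin A/C KO arrays (6.74-fold, -2.69 ± 0.19, adjusted p = 8.3e-09). No array of either genotype came near those of the other. Plagl1, an imprinted zinc finger regulator, was at 1933, 1515 and 1760 for lamin A/C KO and 546 and 413 for emerin KO (3.62-fold, -1.79 ± 0.18, adjusted p = 1.4e-06). Cdkn1c, the imprinted Cdk inhibitor p57, was at 1533, 2342 and 2312 for lamin A/C KO and 450.4 and 569 for emerin KO (4.05-fold, -1.93 ± 0.29, adjusted p = 0.00017). Mest was at 1088, 1030 and 920.2 for lamin A/C KO and 300.1 and 339 for emerin KO (3.17-fold, -1.57 ± 0.22, adjusted p = 9.8e-05). Peg3 was at 1978, 1880 and 1836 for lamin A/C KO and 625 and 652 for emerin KO (2.97-fold, -1.52 ± 0.19, adjusted p = 1.6e-05). Grb10, an adaptor that restrains the insulin and IGF receptors, was at 3366, 3795 and 3706 for lamin A/C KO and 1497 and 1567 for emerin KO (2.37-fold, -1.22 ± 0.14, adjusted p = 5.3e-06). In none of these 6 genes did the arrays overlap, and replicates lay close. The kinase Akt1 was at 1200, 1340 and 1041 for lamin A/C KO and 958 and 631 for emerin KO (1.5-fold, -0.59 ± 0.15, adjusted p = 0.019). The growth hormone receptor Ghr was the member higher in emerin KO, at 4170 and 4181 for emerin KO and 2994, 2726 and 2536 for lamin A/C KO (1.52-fold, 0.60 ± 0.13, adjusted p = 0.006). Igf1 (-0.70), the receptor Igf1r (-0.29) and the imprinted receptor Igf2r (0.13) did not pass, nor did Irs2 (1.15, adjusted p = 0.24). Leaving out emerin KO replicate 2 left 6 of the 7.

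**Figure D2:**
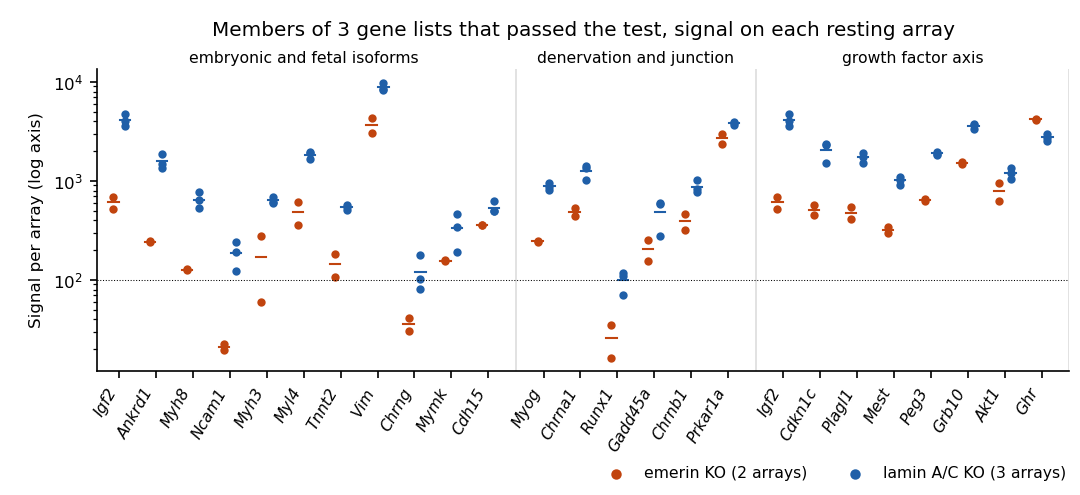
Signal on each of the 5 resting arrays (y axis, log) for the members of the lists of embryonic and fetal isoforms, denervation and junction genes, and the growth factor axis that passed, with emerin KO in red (2 arrays), lamin A/C KO in blue (3 arrays), the group mean as a short line and the limit of 100 dotted. Genes of the first list are not repeated in the second, Igf2 is in both the first and the third, and each of these genes but Ghr is higher in lamin A/C KO.

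Extracellular matrix was the list with most members called. Of 53 tested genes 35 were higher in lamin A/C KO, where 4.18% of all genes were, and 0 in emerin KO (unadjusted 39 and 0), with a median difference of -0.90. Bgn, the small proteoglycan biglycan, gave 1066 and 632 on the emerin KO arrays and 5669, 5328 and 3612 on the lamin A/C KO arrays (5.74-fold, -2.49 ± 0.20, adjusted p = 5.6e-08), and 2 other Bgn probe sets had the same sign (-1.18 and -1.83). Postn, periostin, a matrix protein of repair and fibrosis, gave 906 and 546 on the emerin KO arrays and 3667, 3420 and 4747 on the lamin A/C KO arrays (5.43-fold, -2.42 ± 0.23, adjusted p = 5.1e-07). Timp1, an inhibitor of matrix metalloproteinases, was at 1464, 1119 and 922 for lamin A/C KO and 271 and 130.5 for emerin KO (5.82-fold, -2.41 ± 0.22, adjusted p = 4.2e-07). The groups were apart by more than their spread in all 3. Elastic fiber genes were among those higher in lamin A/C KO: elastin Eln at 2149, 2442 and 2816 for lamin A/C KO and 838 and 641 for emerin KO (3.34-fold, -1.70 ± 0.24, adjusted p = 9.1e-05). Mfap2 was at 1168, 1442 and 1118 for lamin A/C KO and 539.9 and 214 for emerin KO (3.3-fold, -1.76 ± 0.21, adjusted p = 1.5e-05). Mfap5 was at 3325, 3073 and 3353 for lamin A/C KO and 1392 and 957 for emerin KO (2.77-fold, -1.47 ± 0.16, adjusted p = 3.5e-06). Lox, which crosslinks elastin and collagen, was at 4757, 3665 and 2614 for lamin A/C KO and 1422 and 893 for emerin KO (3.18-fold, -1.64 ± 0.25, adjusted p = 0.00023). Tenascin C (Tnc, -1.39 ± 0.23, adjusted p = 0.00053), fibronectin (Fn1, -1.08 ± 0.21, adjusted p = 0.0021) and the collagen-modifying enzyme Plod2 (-1.46 ± 0.19, adjusted p = 3.8e-05) passed as well.

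Of the 33 collagen chains tested, 18 were higher in lamin A/C KO, where 4.18% of all genes were, and 0 in emerin KO, with a median of -0.75. The fibrillar chain Col1a1 gave 11250 and 8471 on the emerin KO arrays and 26050, 27910 and 17020 on the lamin A/C KO arrays (2.4-fold, -1.24 ± 0.20, adjusted p = 0.00028). Col3a1, a fibrillar chain as well, gave 9999 and 5813 on the emerin KO arrays and 14320, 15410 and 13950 on the lamin A/C KO arrays (1.84-fold, -0.93 ± 0.17, adjusted p = 0.0014). Col5a2 was at 3957, 3785 and 3905 for lamin A/C KO and 1837 and 1386 for emerin KO (2.41-fold, -1.27 ± 0.14, adjusted p = 3.7e-06). The basement membrane chains Col4a1 (-0.87 ± 0.14, adjusted p = 0.00041) and Col4a2 (-0.69 ± 0.12, adjusted p = 0.0011) and all 3 tested chains of collagen VI, Col6a1 (-1.05 ± 0.20, adjusted p = 0.0017), Col6a2 (-0.77 ± 0.14, adjusted p = 0.0015) and Col6a3 (-0.92 ± 0.16, adjusted p = 0.0011), passed in the same direction. Col12a1 was at 334, 290 and 403 for lamin A/C KO and 159.8 and 53.5 for emerin KO (3.21-fold, -1.54 ± 0.37, adjusted p = 0.012). The minor basement membrane chains did not pass: Col4a3 (0.30), Col4a4 (0.27), Col4a5 (-0.25) and Col4a6 (0.56). Sparc, which binds collagen, passed although its arrays overlapped, at 26660, 28370 and 11690 for lamin A/C KO and 14840 and 4922 for emerin KO (-1.27 ± 0.36, adjusted p = 0.038).

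Emerin KO replicate 2 weighed most on this list: without it 17 of the 53 matrix genes passed, and 24 did so on the 5 arrays alone. The 6 fibroblast markers, which include Col1a1, Col1a2 and Col3a1 themselves, summed to 34980 to 53310 in emerin KO and 57520 to 90900 in lamin A/C KO, and none was under 100. Of the 6 markers 3 passed, all higher in lamin A/C KO. Those that are not collagens were Pdgfra, Dcn and Lum, and Lum is not given here. The receptor Pdgfra was at 675 and 784 for emerin KO and 694, 618 and 1084 for lamin A/C KO (difference -0.09 ± 0.19, adjusted p = 0.87). Decorin, Dcn, was at 14890 and 8533 for emerin KO and 17370, 14960 and 7822 for lamin A/C KO (-0.17 ± 0.42, adjusted p = 0.89). Pdgfra and Dcn overlapped between genotypes. The tendon marker Tnmd, tenomodulin, was 3.0-fold higher in lamin A/C KO, at 6043, 5817 and 4319 for lamin A/C KO and 2128 and 1469 for emerin KO (-1.58 ± 0.34, adjusted p = 0.0059). The other tendon markers, Chad (0.46), Fmod (-0.20) and Scx, did not pass. The part of fibroblast or tendon content in these differences was not tested.

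**Figure D3:**
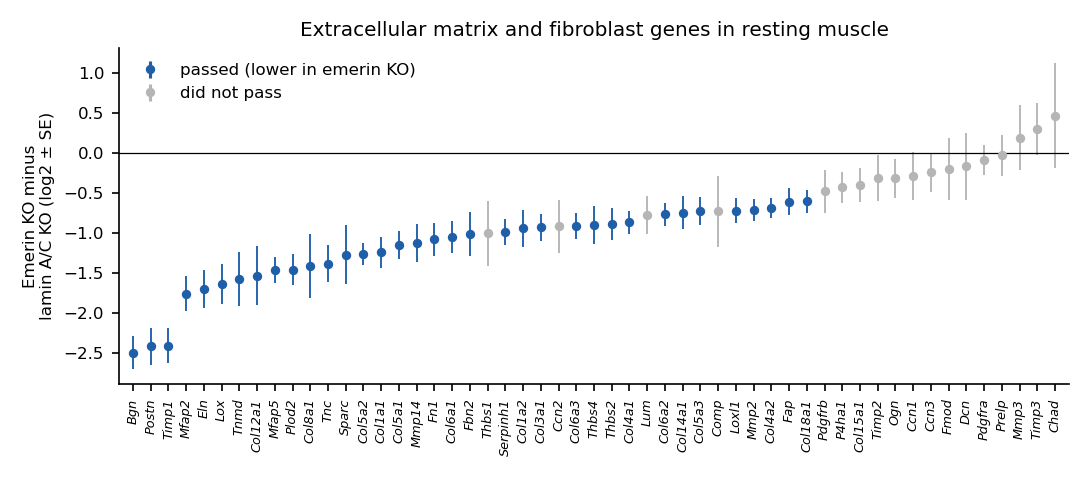
Difference between resting emerin KO and lamin A/C KO muscle (y axis, log2, bars are the standard error) for each of the 53 tested extracellular matrix and fibroblast genes (x axis, in order of the difference). The 35 genes that passed, in blue, are all below 0, that is, higher in lamin A/C KO, from Bgn at -2.49 upward.

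The genes higher in emerin KO were led by Rasd2, a small GTPase of the Ras family, at 1293 and 1373 for emerin KO and 83.2, 106 and 279 for lamin A/C KO (8.54-fold, 3.00 ± 0.51, adjusted p = 0.00065), on a probe set that may share signal with relatives. Its other probe set also read higher in emerin KO, at 675 and 435 against 213, 255 and 179. Smox, spermine oxidase, which breaks spermine down to spermidine and which wasting muscle is known to lose, gave 6048 and 7845 on the emerin KO arrays and 1818, 1786 and 2371 on the lamin A/C KO arrays (3.49-fold, 1.79 ± 0.18, adjusted p = 1.1e-06). Adi1, an enzyme of the methionine salvage pathway, gave 1808 and 2995 on the emerin KO arrays and 494, 642 and 525 on the lamin A/C KO arrays (4.34-fold, 2.02 ± 0.22, adjusted p = 3.3e-06), and a second probe set read 2054 and 1953 against 392, 411 and 309. The gap between the groups was wide in all 3 genes, which were named on condition that the arrays did not overlap. The host gene of small nucleolar RNAs Snhg6 was at 596 and 1102 for emerin KO and 188, 180.5 and 222 for lamin A/C KO (4.32-fold, 1.89 ± 0.20, adjusted p = 2e-06). Opn1mw, a cone opsin gene, was at 239.5 and 243 for emerin KO and 27.0, 33.9 and 29.2 for lamin A/C KO, at least 2.41-fold (2.14 ± 0.33, adjusted p = 0.0002).

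Asb14 and Asb10, which encode substrate receptors of ubiquitin ligases, were higher in emerin KO, while the other 12 of 14 tested genes of their family, gathered after the values were seen, did not pass. Asb10 was at 3036 and 2781 for emerin KO and 894, 661 and 818 for lamin A/C KO (3.68-fold, 1.85 ± 0.39, adjusted p = 0.0051). Asb14 was at 1134 and 1260 for emerin KO and 435, 192 and 318 for lamin A/C KO (3.8-fold, 1.89 ± 0.45, adjusted p = 0.011). Fbxo32, atrogin-1, the muscle ubiquitin ligase of atrophy, was at 3413 and 2564 for emerin KO and 812, 883 and 1484 for lamin A/C KO (2.82-fold, 1.5 ± 0.41, adjusted p = 0.026), and its other probe set read 1667 and 2245 against 555, 510 and 988. The autophagy kinase Ulk1 was at 1333 and 1039 for emerin KO and 685, 669 and 796 for lamin A/C KO (1.65-fold, 0.70 ± 0.18, adjusted p = 0.023). None of the 4 overlapped between genotypes, which was a condition for naming Asb10 and Asb14. Over the whole atrophy list, 2 of 29 tested genes were higher in emerin KO and 3 in lamin A/C KO (Mt2, Cdkn1a and Gadd45a), with a median of -0.07. Fbxo32 lost its call without emerin KO replicate 1 (as without emerin KO replicate 2 and without lamin A/C KO replicates 1 or 2), and Asb14 lost it without emerin KO replicate 2 or lamin A/C KO replicate 2.

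A further 7 of the largest differences toward emerin KO were in genes of varied kinds, again named on condition that the arrays did not overlap. The flippase Atp8a1 was at 2717 and 2286 for emerin KO and 665, 754 and 832 for lamin A/C KO (3.33-fold, 1.70 ± 0.30, adjusted p = 0.0011). The methyltransferase Inmt was at 1327 and 1040 for emerin KO and 351, 359 and 305 for lamin A/C KO (3.5-fold, 1.71 ± 0.37, adjusted p = 0.0062). The sterol hydroxylase Cyp27a1 was at 1930 and 2052 for emerin KO and 619, 481 and 779.8 for lamin A/C KO (3.18-fold, 1.64 ± 0.22, adjusted p = 4.8e-05). Chac1, which degrades glutathione and is a target of the amino acid response, was at 3743 and 1560 for emerin KO and 894, 416 and 810.5 for lamin A/C KO (3.75-fold, 1.80 ± 0.34, adjusted p = 0.0019), with emerin KO replicate 1 far above replicate 2. Kif21a, a kinesin motor, was at 877 and 983 for emerin KO and 255, 308 and 253 for lamin A/C KO (3.42-fold, 1.67 ± 0.22, adjusted p = 4e-05). Ccdc91, a trafficking protein of the Golgi, was at 1671 and 1967 for emerin KO and 535, 570.5 and 530.1 for lamin A/C KO (3.34-fold, 1.68 ± 0.33, adjusted p = 0.0029). Magix, a PDZ domain protein, was at 324 and 314 for emerin KO and 28.5, 142 and 97.9 for lamin A/C KO, at least 3.19-fold (1.66 ± 0.40, adjusted p = 0.011). Their arrays did not overlap, but Inmt and Chac1 did not pass without emerin KO replicate 1, Ccdc91 without replicate 2, and Magix without either emerin KO array or without lamin A/C KO replicate 1.

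Lipid genes formed the list with most members higher in emerin KO. Of 21 tested adipocyte genes 4 were higher in emerin KO, where 2.11% of all genes tested were, and 0 in lamin A/C KO (unadjusted 5 and 3, where 9.18% and 9.38% of all genes were), with a median of 0.17. Dgat2, which makes triglyceride, was at 2184 and 1680 for emerin KO and 691, 769.7 and 891 for lamin A/C KO (2.46-fold, 1.26 ± 0.17, adjusted p = 6.3e-05). Scd1, a fatty acid desaturase, was at 6117 and 6420 for emerin KO and 2563, 2765 and 3100 for lamin A/C KO (2.23-fold, 1.15 ± 0.26, adjusted p = 0.0071). Lpin1 was at 4288 and 4185 for emerin KO and 2398, 2273 and 2484 for lamin A/C KO (1.78-fold, 0.82 ± 0.20, adjusted p = 0.015). The malic enzyme Me1 was at 2436 and 2981 for emerin KO and 1652, 1653 and 1811 for lamin A/C KO (1.59-fold, 0.65 ± 0.17, adjusted p = 0.021). All 4 are also made by other cells. The defining adipocyte markers did not pass: Adipoq differed by 0.55 ± 0.24, Retn by 0.52 ± 0.25 and Fabp4 by -0.44 ± 0.15, and Lep was under 100 in both groups. The 4 adipocyte markers on the array summed to 6503 to 8499 in emerin KO and 7657 to 8834 in lamin A/C KO. Without emerin KO replicate 2, 1 of the 4 calls was left, and 1 with the mean of all probe sets.

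Few adult contractile and energy genes passed. Of 24 mature fast contractile genes 1 passed, the myosin light chain kinase Mylk2, higher in emerin KO at 3819 and 3233 for emerin KO and 1941, 2098 and 2214 for lamin A/C KO (0.75 ± 0.21, adjusted p = 0.032), and the list median was -0.03. Mylk2 lost its call without either emerin KO array, without lamin A/C KO replicate 1 or 2, under median scaling and with a pseudocount of 1. The fast myosin heavy chain Myh4 was at 25590 and 27560 for emerin KO and 27530, 28340 and 21800 for lamin A/C KO (0.05 ± 0.28, adjusted p = 0.96). Creatine kinase Ckm was at 28170 and 33760 for emerin KO and 34360, 35880 and 25640 for lamin A/C KO (-0.04 ± 0.20). The calcium pump Atp2a1 was at 32810 and 34950 for emerin KO and 37850, 40460 and 29340 for lamin A/C KO (-0.07 ± 0.19). Each overlapped. Of 63 oxidative phosphorylation genes 1 passed, Ndufb7, a subunit of complex I, at 9827, 10740 and 8569 for lamin A/C KO and 7342 and 4106 for emerin KO (-0.81 ± 0.20, adjusted p = 0.014), with a median of 0.01. Fatty acid oxidation (1 of 32, Angptl4, a lipase inhibitor higher in lamin A/C KO, -1.13 ± 0.27, adjusted p = 0.012) was near the share of all genes too. In glycolysis and glycogen, 2 of 28 were higher in emerin KO and 1 in lamin A/C KO. The regulator Pfkfb3 was at 2234 and 1516 for emerin KO and 618, 466 and 863 for lamin A/C KO (2.89-fold, 1.5 ± 0.33, adjusted p = 0.0061). The hexokinase Hk2 was at 6438 and 6055 for emerin KO and 3671, 3357 and 3857 for lamin A/C KO (0.78 ± 0.19, adjusted p = 0.013), while the mutase Pgam1 was higher in lamin A/C KO (-0.90 ± 0.17, adjusted p = 0.0023). Neither Pfkfb3 nor Hk2 passed without emerin KO replicate 1. Hk2 also lost its call without emerin KO replicate 2, without lamin A/C KO replicate 2 and under median scaling. Ndufb7 lost its call without emerin KO replicate 2 or lamin A/C KO replicate 2, and Angptl4 without emerin KO replicate 1 or lamin A/C KO replicate 2.

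Among 16 slow fiber genes 3 were higher in lamin A/C KO, where 4.18% of all genes were, and 0 in emerin KO (unadjusted 5 and 3), with a median of -0.22. Sln was among the 3. The muscle LIM protein Csrp3 was at 9496, 8242 and 6868 for lamin A/C KO and 2417 and 3110 for emerin KO (2.97-fold, -1.56 ± 0.37, adjusted p = 0.011). The cardiac and slow calsequestrin Casq2 was at 2304, 2146 and 2215 for lamin A/C KO and 1047 and 648 for emerin KO (2.62-fold, -1.39 ± 0.21, adjusted p = 0.00015). The slow contractile genes proper did not pass and went both ways. The slow myosin heavy chain Myh7 was at 8378 and 7126 for emerin KO and 5451, 4495 and 4438 for lamin A/C KO (0.69 ± 0.25, adjusted p = 0.11), and the slow light chain Myl3 at 14340 and 18870 for emerin KO and 11200, 9189 and 9207 for lamin A/C KO (0.74 ± 0.29, adjusted p = 0.14). Myl2 (0.55 ± 0.39, adjusted p = 0.49) and the slow troponin Tnnt1 (0.35 ± 0.17, adjusted p = 0.25) also had higher signals on both emerin KO arrays than on any lamin A/C KO array. The slow troponin Tnni1 had the opposite sign (-0.54 ± 0.18, adjusted p = 0.087). So had the tropomyosin Tpm3 (-0.79 ± 0.24, adjusted p = 0.052), whose arrays overlapped. Csrp3 lost its call without emerin KO replicate 1. The same Sln and Casq2 were the 2 of 30 sarcoplasmic reticulum genes that passed. In the dystrophin complex and Z-disc, 8 of 34 were higher in lamin A/C KO and 3 in emerin KO, against 4.18% and 2.11% of all genes. Nos1, the neuronal nitric oxide synthase bound to the complex, was at 1041 and 1129 for emerin KO and 389.5, 395 and 469.6 for lamin A/C KO (2.6-fold, 1.32 ± 0.29, adjusted p = 0.006). The calpain Capn3 was at 1680 and 1921 for emerin KO and 988, 834 and 1060 for lamin A/C KO (1.87-fold, 0.89 ± 0.19, adjusted p = 0.0059). Dmd, dystrophin itself, was at 787 and 1060 for emerin KO and 578, 575 and 524 for lamin A/C KO (1.65-fold, 0.68 ± 0.19, adjusted p = 0.031). These were the 3 higher in emerin KO. Those higher in lamin A/C KO included the laminin receptors: dystroglycan Dag1 at 4998, 4891 and 4580 for lamin A/C KO and 2412 and 2484 for emerin KO (1.97-fold, -0.97 ± 0.22, adjusted p = 0.0076). Integrin alpha 7, Itga7, was at 1752, 1525 and 1347 for lamin A/C KO and 673 and 889.5 for emerin KO (1.97-fold, -0.96 ± 0.16, adjusted p = 0.0007). Integrin beta 1, Itgb1, was at 3341, 2642 and 3204 for lamin A/C KO and 1652 and 1723 for emerin KO (1.81-fold, -0.84 ± 0.14, adjusted p = 0.00053). The beta-syntrophin Sntb2 was at 143, 173 and 126 for lamin A/C KO and 37.9 and 25.7 for emerin KO, at least 1.48-fold (-1.49 ± 0.29, adjusted p = 0.0022). The arrays of these 7 genes did not overlap between genotypes, and the call of Nos1 was lost without emerin KO replicate 2.

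**Figure D4:**
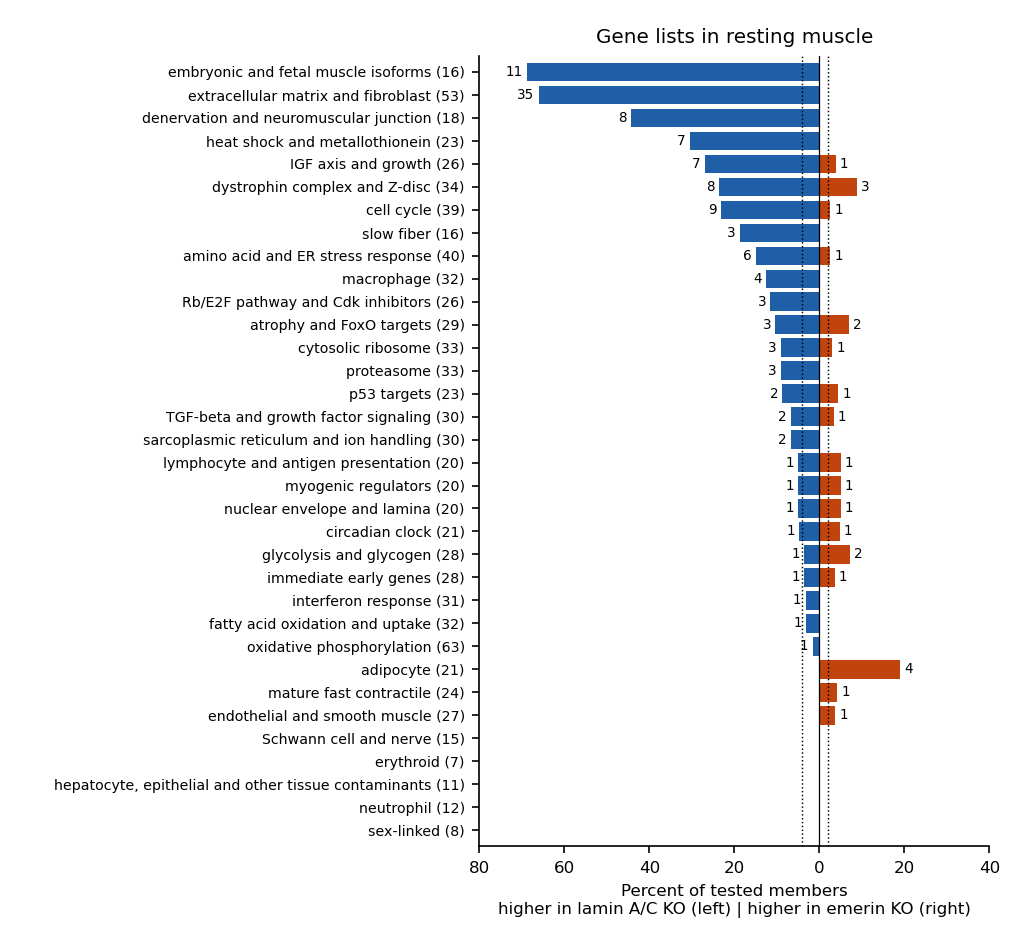
Percent of the tested members of each of the 34 gene lists that passed as higher in lamin A/C KO (blue, to the left) or in emerin KO (red, to the right), with the number of genes at each bar and the number tested in parentheses. Dotted lines mark the share over all genes tested, 4.18% to the left and 2.11% to the right, and the longest bars are those of embryonic and fetal isoforms (11 of 16) and extracellular matrix (35 of 53).

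Stress genes were mostly higher in lamin A/C KO where they passed. Of 23 heat shock and metallothionein genes 7 were higher in lamin A/C KO, where 4.18% of all genes were, and 0 in emerin KO (unadjusted 11 and 2), with a median of -0.39. The inducible chaperone Hspa1b was at 1992, 1725 and 1821 for lamin A/C KO and 438 and 702 for emerin KO (3.24-fold, -1.67 ± 0.23, adjusted p = 5.3e-05). The small heat shock protein Hspb1 was at 22600, 21100 and 16720 for lamin A/C KO and 8347 and 6990 for emerin KO (2.63-fold, -1.38 ± 0.18, adjusted p = 3.6e-05). Metallothionein 2, Mt2, was at 3291, 2310 and 2723 for lamin A/C KO and 947 and 1045 for emerin KO (2.79-fold, -1.44 ± 0.23, adjusted p = 0.00038). Heme oxygenase Hmox1 was at 234, 178 and 169.9 for lamin A/C KO and 93.1 and 35.2 for emerin KO, at least 1.94-fold (-1.29 ± 0.26, adjusted p = 0.0037), a call lost without emerin KO replicate 2. Of 40 amino acid and endoplasmic reticulum stress genes 6 were higher in lamin A/C KO, where 4.18% of all genes were, and 1, Chac1, in emerin KO, where 2.11% were. At an unadjusted p under 0.05 by limma the numbers were 9 and 5, and the median was -0.11. Arrays did not overlap for 11 of these genes toward lamin A/C KO and 9 toward emerin KO. Over all 11164 genes they did not overlap for 1533 and 1890, so these counts alone say little about the list. Psat1, of serine synthesis, was at 608, 562 and 484 for lamin A/C KO and 88.2 and 125 for emerin KO (5.18-fold, -2.08 ± 0.20, adjusted p = 7.2e-07). The chaperone Hspa5 (BiP) was at 4944, 4795 and 4534 for lamin A/C KO and 2178 and 1594 for emerin KO (2.52-fold, -1.34 ± 0.16, adjusted p = 8.2e-06). The transcription factor Atf3 was at 414, 455 and 344 for lamin A/C KO and 163 and 108 for emerin KO (2.99-fold, -1.40 ± 0.25, adjusted p = 0.0011). Calr (-0.61 ± 0.12, adjusted p = 0.0029), Pdia3 (-0.97 ± 0.17, adjusted p = 0.00092) and Xbp1 (-0.85 ± 0.22, adjusted p = 0.018), which fold or regulate secreted proteins, passed in that direction too.

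Of 39 tested cell cycle genes 9 were higher in lamin A/C KO and 1, Aurka (0.61 ± 0.18, adjusted p = 0.041), in emerin KO, against 4.18% and 2.11% of all genes. The list median was -0.28. Birc5, survivin, was at 166, 227 and 256 for lamin A/C KO and 58.8 and 26.5 for emerin KO, at least 2.16-fold (-1.75 ± 0.19, adjusted p = 4.1e-06). The cyclin Ccnb2 was at 106, 72.1 and 147 for lamin A/C KO and 26.9 and 30.2 for emerin KO, at least 1.08-fold (-1.18 ± 0.23, adjusted p = 0.0024). Top2a, a topoisomerase of dividing cells, was at 232, 294 and 275 for lamin A/C KO and 127 and 143 for emerin KO (1.98-fold, -0.84 ± 0.15, adjusted p = 0.0011). The replication clamp Pcna was at 1832, 1529 and 1491 for lamin A/C KO and 1023 and 898 for emerin KO (1.68-fold, -0.73 ± 0.15, adjusted p = 0.0036). The mitotic kinase Cdk1 passed with overlapping arrays (257, 59.8 and 284 for lamin A/C KO and 26.3 and 94.3 for emerin KO). Without emerin KO replicate 2, 6 of the 9 passed, and 3 did so on the 5 arrays alone. In the Rb/E2F list, 3 of 26 passed, all Cdk inhibitors higher in lamin A/C KO, where 4.18% of all genes were, among them Cdkn1c. Other Cdk inhibitors did not pass. Cdkn2c (0.49 ± 0.15, adjusted p = 0.053) and Cdkn1b (0.59 ± 0.24, adjusted p = 0.16) had higher signals on both emerin KO arrays than on any lamin A/C KO array. Cdkn2a (-0.12) and Cdkn2d (0.02) overlapped. Cdkn1a (p21) was at 1572, 2125 and 1076 for lamin A/C KO and 830 and 554 for emerin KO (2.3-fold, -1.14 ± 0.25, adjusted p = 0.0072). Cdkn2b (p15) was at 297, 262 and 158 for lamin A/C KO and 32 and 95.4 for emerin KO, at least 2.39-fold (-1.55 ± 0.36, adjusted p = 0.0094). Of 23 p53 targets, Cdkn1a and Gadd45a (-1.10 ± 0.31, adjusted p = 0.032) were higher in lamin A/C KO and Phlda3, at 5271 and 4409 for emerin KO and 3230, 2717 and 3163 for lamin A/C KO (0.67 ± 0.13, adjusted p = 0.002), in emerin KO. On the 5 arrays alone, neither Cdkn1a nor Gadd45a passed. Cdkn1a also lost its call without emerin KO replicate 2, Cdkn2b without emerin KO replicate 1, Gadd45a without emerin KO replicate 1 or lamin A/C KO replicates 2 or 3, and Cdk1 without emerin KO replicate 1 or lamin A/C KO replicates 1 or 3.

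Regulators were mixed. Of 20 myogenic regulators Myog was higher in lamin A/C KO and Mef2d, a partner of the myogenic factors, in emerin KO, at 3039 and 2759 for emerin KO and 1617, 1418 and 1756 for lamin A/C KO (1.81-fold, 0.85 ± 0.14, adjusted p = 0.00034). In the TGF-beta list, 2 of 30 were higher in lamin A/C KO and 1 in emerin KO, against 4.18% and 2.11% of all genes. The follistatin-like protein Fstl1 was at 3881, 4217 and 3741 for lamin A/C KO and 1769 and 1250 for emerin KO (2.61-fold, -1.39 ± 0.17, adjusted p = 1.1e-05). Smad4, which carries the signal to the nucleus, was the member higher in emerin KO, at 2125 and 2013 for emerin KO and 1428, 1202 and 1558 for lamin A/C KO (0.56 ± 0.15, adjusted p = 0.021). Its call was lost without either emerin KO array, without lamin A/C KO replicate 2, under median scaling, with the mean of all probe sets, and with only the 5 or the 7 day 0 arrays in the fit. Gadd45g was the immediate early gene higher in emerin KO, at 1625 and 1121 for emerin KO and 466, 552 and 633 for lamin A/C KO (2.5-fold, 1.26 ± 0.21, adjusted p = 0.00054). Of 21 clock genes, Dbp, an output of the clock, was higher in emerin KO at 2480 and 1967 for emerin KO and 1267, 789.7 and 1230 for lamin A/C KO (2.03-fold, 1.02 ± 0.22, adjusted p = 0.0064), and no time of dissection is given. Dbp lost its call without emerin KO replicate 1. The list also held the tetraspanin Tspan4, whose tie to the clock is uncertain, higher in lamin A/C KO at 372, 334 and 296 for lamin A/C KO and 271 and 28.3 for emerin KO (-1.43 ± 0.39, adjusted p = 0.025). Emerin KO replicate 2 carried that difference: without it Tspan4 differed by -0.27 ± 0.26 (adjusted p = 0.75), and the call was also lost without lamin A/C KO replicate 1 or 2. Of 20 nuclear envelope genes the 2 that passed were Lmna and Tmem43 (LUMA). Tmem43 was at 823, 1145 and 689.8 for lamin A/C KO and 559 and 346 for emerin KO (-0.93 ± 0.24, adjusted p = 0.021), and its other, dim probe set had the opposite sign (0.18). Its call was lost without emerin KO replicate 2 or lamin A/C KO replicate 2. The B-type lamins Lmnb1 (0.25 ± 0.17) and Lmnb2 (-0.41 ± 0.25) and the linker proteins Sun1 (-0.32 ± 0.20), Sun2 (0.42 ± 0.13), Syne1 (0.15 ± 0.18) and Syne2 (0.35 ± 0.41) did not pass. Ribosomal (3 of 33 higher in lamin A/C KO, 1 in emerin KO) and proteasomal genes (3 of 33 higher in lamin A/C KO) differed by less than 2-fold where they passed: Rpl11 (-0.60 ± 0.14), Rpl27 (-0.54 ± 0.16), Rpl19 (-0.51 ± 0.13) and Psmd14 (-0.59 ± 0.16) lower in emerin KO and Rps6 (0.72 ± 0.17) higher. None of these 5 calls held with each array left out in turn: Rpl11 was lost without emerin KO replicate 1, Rps6 without emerin KO replicate 2, and Rpl27, Rpl19 and Psmd14 without emerin KO replicate 2 or lamin A/C KO replicate 1, among others.

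Other cell types the muscle could hold were read through their lists and markers. Of 32 macrophage genes 4 were higher in lamin A/C KO, where 4.18% of all genes were, and 0 in emerin KO (unadjusted 7 and 0). The lectin Lgals3, which regenerating fibers and fibroblasts also make, was at 1010, 962 and 1210 for lamin A/C KO and 350.2 and 213 for emerin KO (3.77-fold, -1.83 ± 0.23, adjusted p = 2.5e-05). The lysozyme Lyz2 was at 1732, 2156 and 2202 for lamin A/C KO and 1200 and 934 for emerin KO (1.9-fold, -0.91 ± 0.17, adjusted p = 0.0018). The complement genes C1qc (-0.84 ± 0.25, adjusted p = 0.043) and C1qa (-0.59 ± 0.14, adjusted p = 0.013) passed as well. The markers Csf1r (-0.02 ± 0.14), Adgre1 (-0.17 ± 0.21) and Cd68 (-0.28 ± 0.18) did not pass, and the 8 markers summed to 5985 to 7584 in emerin KO and 7434 to 9240 in lamin A/C KO. Without emerin KO replicate 2, 1 of the 4 was left, and C1qc and C1qa were also lost without lamin A/C KO replicate 2. The lymphocyte list had Ighm higher in emerin KO (0.70 ± 0.18, adjusted p = 0.019) and Thy1 in lamin A/C KO (-0.75 ± 0.19, adjusted p = 0.02), out of 20. Of 31 interferon genes 1 passed, Iigp1, higher in lamin A/C KO at 1522, 2417 and 1324 for lamin A/C KO and 919 and 522 for emerin KO (-1.25 ± 0.35, adjusted p = 0.034). Neither Ighm nor Thy1 passed without emerin KO replicate 2 or lamin A/C KO replicate 1, nor Iigp1 without any 1 of emerin KO replicate 2 and lamin A/C KO replicates 1 and 2. Of 27 endothelial and smooth muscle genes 1 passed, the water channel Aqp1, higher in emerin KO at 5616 and 4987 for emerin KO and 2759, 2649 and 3972 for lamin A/C KO (0.78 ± 0.15, adjusted p = 0.0018).

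By limma, 0 of 12 neutrophil, 0 of 7 erythroid, 0 of 15 Schwann cell and nerve, 0 of 8 sex-linked and 0 of 11 other-tissue genes passed, and at an unadjusted p under 0.05 the numbers were 2, 0, 2, 1 and 1, where 18.6% of all genes were. The smallest p-values were those of Csf3r (0.92 ± 0.30, adjusted p = 0.074) and Elane (1.20 ± 0.39, adjusted p = 0.075) for neutrophils, and of Bpgm (0.39 ± 0.27, adjusted p = 0.48) and Tfrc (-0.24 ± 0.19, adjusted p = 0.54) for red cells. For nerve they were those of Pmp22 (-0.76 ± 0.25, adjusted p = 0.078) and Scn7a (-1.08 ± 0.45, adjusted p = 0.18), for sex-linked genes of Kdm5d (0.62 ± 0.23, adjusted p = 0.12) and Ddx3x (0.38 ± 0.25, adjusted p = 0.45), and for other tissues of Krt5 (-1.10 ± 0.51, adjusted p = 0.24) and Prm1 (0.70 ± 0.38, adjusted p = 0.35). The neutrophil markers S100a8 and S100a9, the T cell marker Cd3e and the satellite cell marker Myf5 were under 100 in both groups. The 2 of 5 Schwann cell markers on the array, Mbp and Pmp22, summed to 4024 to 6043 in emerin KO and 6827 to 7656 in lamin A/C KO. Of the 15 nerve genes 9 had negative differences, while Sox10 (0.43) and Mag (0.42) had the opposite sign. The 4 smooth muscle markers summed to 3704 to 5122 and 6681 to 7034, mostly Acta2 (4042 and 2754 against 5567, 5543 and 5762). Myh11 (-0.37) had the same sign, Tagln (-0.24) overlapped and Cnn1 (0.23) had the opposite sign. Neither sum overlapped, but each rests on few genes and no single marker of either passed.

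After injection the genotype difference was not the same as at rest. On day 3, 442 genes were higher in emerin KO (3.96% of those tested) and 669 in lamin A/C KO (5.99%), and on day 4, 938 (8.4%) and 895 (8.02%). Of the 236 genes higher in resting emerin KO, 46 (19.5%) were also higher on day 3, 55 (23.3%) on day 4 and 31 on both, and these were 10.4% and 5.86% of the genes called in that direction on those days. Of the 467 higher in resting lamin A/C KO, 123 (26.3%) were so on day 3, 106 (22.7%) on day 4 and 80 on both (18.4% and 11.8% of those days' genes). Few were called the opposite way: 9 and 11 of the former, 13 and 24 of the latter. The change of the difference itself, day 0 minus the mean of days 3 and 4, passed in 803 genes (7.19% of those tested), among them 114 of the 236 and 235 of the 467. The change reuses the day 0 arrays that chose the 236 and the 467. That choice favors smaller differences later and raises these counts.

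Sln kept a difference on each day (-2.92 on day 3 and -1.85 on day 4), as did Gdpd3 (-1.83 and -2.73), Mfap4 (-2.46 and -1.98), Serpina3n (-1.98 and -2.27) and Postn (-2.15 and -1.59), all adjusted p under 0.05. By contrast Ankrd1 was at -0.07 and -0.38, Tubb6 at -0.21 and 0.01, Bgn at -0.20 and -0.09, and Myog at 0.68 and 0.47, that is, higher in emerin KO on day 3. Each of these 4 changed from rest by the test of the change. Lmna on the probe set used at rest was at 5.58 and 5.37, a wider gap than at rest. RNA quality differed along with the day: in emerin KO the Gapdh 3' to 5' ratio reached 3.62 to 6.09 on day 3, with a range of 1.40 to 5.30 on day 4. In lamin A/C KO the ranges were 1.21 to 1.64 and 0.822 to 0.888. With that ratio as a covariate 140 genes passed the test of the change, and without emerin KO replicate 2, 343 did.

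**Figure D5:**
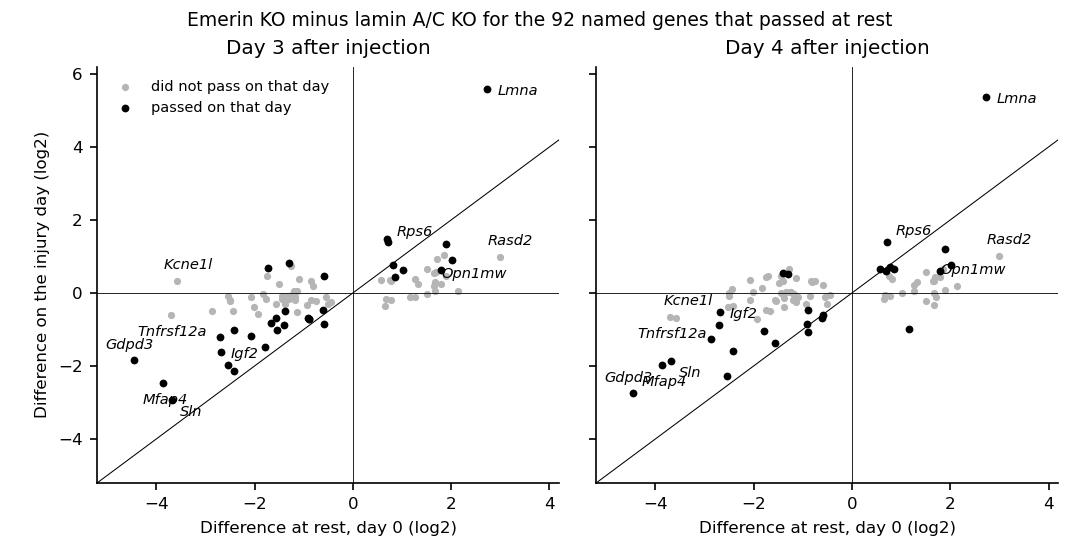
Emerin KO minus lamin A/C KO difference (log2) at rest (x axis) and on day 3 (left) or day 4 (right) after injection (y axis) for the 92 named genes that passed at rest, black where they passed on that day and grey where they did not, with the line of equal difference. Most points lie nearer to 0 on the y axis than on the x axis, which choosing genes by their difference at rest favors. Lmna lies above the line on both days.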

How the data were processed

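The authors deposited intensities, linear MAS5 signals per the submitters' processing notes (version not given in the sources used here), which have the same trimmed mean on all 23 arrays. All were multiplied so that this mean, without the extreme 2% at each end, became 500. Then log2(signal + 32) was taken. The probe set with the highest mean over all 23 arrays stood for its gene, among 20380 probe sets with a single gene symbol. Those with several symbols (691) or none (1555) were dropped. Genes had to reach a signal of 100 on 2 or more of the 23 arrays, which 11164 of 12393 did. With the filter on the 5 compared arrays, 10334 genes were tested.

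The 9 groups were fitted together with limma 3.58.1 (trend=TRUE, R 4.3.3), with 14 residual degrees of freedom and p adjusted by Benjamini-Hochberg. The number of arrays limits the precision. Tested on simulated data with 100 genes changed at each size, the test found 50 percent of those differing by 2-fold and 94 percent of those differing by 4-fold between resting emerin KO and lamin A/C KO, with 3 false calls among 11164 genes. The simulated noise was independent between genes and had the same spread on all arrays. Log2 differences between the resting emerin KO arrays had a standard deviation of 0.63, against 0.45 to 0.56 between lamin A/C KO arrays. The simulated shares and false calls therefore need not hold for these arrays.

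The genotypes share replicate numbers 1 and 2. Same-numbered arrays of both genotypes deviated together with r = 0.18 (number 1) and -0.24 (number 2). The deviations of 2 emerin KO arrays from their mean mirror each other, so these values cannot show whether the numbers pair the arrays. The arrays were fitted as unpaired, with a replicate block as an alternative.

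The comparison, the 34 gene lists (877 of 995 symbols with a probe set, lists share members) and the alternatives were chosen with earlier results of these data known. Named were the 15 largest differences each way among genes that passed without overlap and with a mean of at least 100 in 1 group (unnamed cDNAs and gene models only counted), Emd and Lmna, and up to 4 members per list that passed, or 2 with the smallest p where none did, with members whose other probe set had the opposite sign given with it or left out. Other list members and the collagen chains were named after their values were seen. Psmc6, Psmc1 and Tgfbi were left out of the comparison at rest for an opposite probe set. Plots come from matplotlib 3.10.9, with pandas 2.3.3 and Python 3.11.15.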

Additional observations from a re-analysis of the deposited data

Results flagged for a closer look

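Of the 92 named genes that passed at rest, 59 also passed the limma test of the change of the emerin KO minus lamin A/C KO difference, day 0 minus the mean of days 3 and 4. The values below are that change in log2, negative where the day 0 difference lay below the later ones. In 57 of the 59 the difference was smaller in size after injection than at rest, and in 22 its sign was then the opposite. The genes were chosen for their day 0 differences, and the change reuses the same day 0 arrays. Smaller differences later are thus favored by the choice itself. The exceptions in size were Lmna (-2.75) and the ribosomal gene Rps6 (-0.68), both higher in emerin KO by more after injection.

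Genes higher in resting lamin A/C KO whose difference kept its sign but was smaller after injection numbered 25. Among the largest differences at rest these were Gdpd3 (-2.16), Tnfrsf12a (-3.06), Sln (-1.30), Kcne1l (-3.40), Serpinb1a (-2.0), Rbp7 (-1.66), Tubb6 (-2.40) and Spsb2 (-2.23). Of fetal, growth and slow muscle genes they were Igf2 (-1.63), Ankrd1 (-2.31), Myh8 (-1.68), Ncam1 (-1.82), Cdkn1c (-1.30) and Casq2 (-1.23). Matrix and growth factor genes among them were Bgn (-2.35), Timp1 (-1.73), Mfap2 (-1.44), Fstl1 (-1.07) and Tgfbi (-1.11), the last with another probe set of opposite sign at rest. Chaperone, serine synthesis and cell division genes were Hspa1b (-1.03), Hspb1 (-1.05), Hspa5 (-1.30), Psat1 (-1.93), Ccnb2 (-1.06) and Tubb5 (-0.71).

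A further 15 genes were higher in lamin A/C KO at rest and on average higher in emerin KO after injection. Muscle and stress genes of this kind were Myog (-2.30), Chrna1 (-1.48), Mt2 (-1.62), Cdkn1a (-1.38), Gadd45a (-1.24), Atf3 (-1.50), Hmox1 (-2.02), Sntb2 (-1.75), Ndufb7 (-1.07) and Birc5 (-2.20). Immune genes were Lgals3 (-1.88), C1qc (-1.17), C1qa (-0.93), Thy1 (-0.80) and Iigp1 (-1.62).

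Of the genes higher in resting emerin KO, 10 kept the sign with a smaller difference: Rasd2 (2.01), Opn1mw (2.02), Adi1 (1.19), Chac1 (1.46), Smox (1.17), Atp8a1 (1.19), Ccdc91 (1.65), Kif21a (1.35), Cyp27a1 (1.20) and Dgat2 (0.96). In 7 the sign was the opposite: Magix (1.73), Pfkfb3 (1.63), Scd1 (1.69), Me1 (0.92), Aqp1 (0.92), Gadd45g (1.28) and Phlda3 (0.77). Of the 59 genes, 31 passed with the Gapdh 3' to 5' ratio as a covariate and 39 without emerin KO day 0 replicate 2, and the sign of the change was kept in each gene that could be fitted. The part of RNA quality in these changes was not tested beyond that covariate.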

How the results depend on the processing

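The 18 alternatives were quantile normalization, median scaling, pseudocounts of 1 and 100, no filter, a filter on the 5 compared arrays, the mean of all probe sets, no intensity trend, the replicate block, only the 5 compared, the 7 day 0 or the 17 knockout arrays in the fit, a covariate of the Gapdh ratio, and each of the 5 arrays left out. Genes higher in emerin KO (236) numbered 135 under median scaling and 120 with only the 5 arrays, and 107 to 244 when 1 array was left out. Genes higher in lamin A/C KO (467) numbered 211 with only the 5 arrays, 267 with only the 7 day 0 arrays, and 247 to 553 when 1 was left out. With 1 array left out, both counts were lowest without emerin KO replicate 2. The test of the change after injection (803) gave 456 genes under median scaling, 140 with the Gapdh covariate and 343 to 875 with 1 array left out: 343 without emerin KO replicate 2 and 457 without lamin A/C KO replicate 2. With the replicate block, 260 and 493 genes passed at rest. Median scaling took the median of all genes from 0.06 to 0.00. Of the 92 named genes called at rest, 51 kept the call with each array left out in turn and 44 under all 18 alternatives, and 0 of their 1654 values under the alternatives reversed the call; 31 calls were lost without emerin KO replicate 2, 25 with only the 5 arrays and 20 with the mean of all probe sets. The cause was not tested. Signals under 100 are near background, so the size of differences there is uncertain.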

Other observations

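Imprinted genes were read as well, a list written after the values were seen, so its counts are a description. The arrays do not tell the parental copies apart, so imprinting of these genes in muscle was not tested. Of the 20 tested outside the list of the growth factor axis, 4 were higher in lamin A/C KO and 0 in emerin KO, with a median difference of -0.23 against 0.06 over all genes. Ndn, necdin, was at 964, 1036 and 1374 for lamin A/C KO and 579 and 655 for emerin KO (-0.82 ± 0.16, adjusted p = 0.0021). Gatm, which makes the creatine precursor, was at 518, 628 and 497 for lamin A/C KO and 169.6 and 293 for emerin KO (-1.17 ± 0.22, adjusted p = 0.0015). The long noncoding RNA Rian was at 709.6, 909 and 450.1 for lamin A/C KO and 260.4 and 397 for emerin KO (-0.97 ± 0.26, adjusted p = 0.025). The tetraspanin Cd81 was at 4058, 4088 and 3940 for lamin A/C KO and 3176 and 2517 for emerin KO (-0.51 ± 0.12, adjusted p = 0.0092). None of the 4 overlapped between genotypes. The neighbours of Rian in the same imprinted cluster were at 2592, 2935 and 2314 for lamin A/C KO and 1977 and 1378 for emerin KO for Meg3 (-0.65 ± 0.20, adjusted p = 0.057) and 562, 587 and 366 for lamin A/C KO and 267 and 183 for emerin KO for Dlk1 (-1.05 ± 0.33, adjusted p = 0.063), and neither passed. Nnat (0.87 ± 0.36), Rasgrf1 (0.74 ± 0.32), Asb4 (0.61 ± 0.25) and Slc22a18 (0.75 ± 0.38) had differences of the opposite sign and did not pass.

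Polyamine and methionine salvage genes, also gathered after the values of Smox and Adi1 were seen, went both ways. Of 17 tested, 4 were higher in emerin KO and 2 in lamin A/C KO. Sat1, which acetylates spermine and spermidine for export, was at 1332, 1221 and 1106 for lamin A/C KO and 409 and 268 for emerin KO (3.6-fold, -1.78 ± 0.20, adjusted p = 3.8e-06), the reverse of Smox. Oaz2, an antizyme that restrains polyamine synthesis, was at 4057, 4580 and 4585 for lamin A/C KO and 3334 and 3264 for emerin KO (-0.41 ± 0.12, adjusted p = 0.047). In methionine salvage, Mtap was at 933 and 940 for emerin KO and 584, 586 and 449.8 for lamin A/C KO (0.77 ± 0.19, adjusted p = 0.015). Enoph1 was at 436 and 391 for emerin KO and 237, 259 and 243 for lamin A/C KO (0.68 ± 0.15, adjusted p = 0.0076), in the direction of Adi1. The next enzymes Apip (0.41 ± 0.17) and Mri1 (0.51 ± 0.22) had the same sign and did not pass. Odc1, the first enzyme of polyamine synthesis, was at 3433 and 3208 for emerin KO and 2869, 3280 and 3285 for lamin A/C KO (0.08 ± 0.15, adjusted p = 0.84).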
